A study of Mus musculus with 4 samples.

Results

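The nuclear receptor genes are described here by the DNA methylation measured in and around them in mouse liver. They are 45 genes, of 34614 protein-coding and lncRNA genes in the annotation, and a CpG was assigned to a gene when it lay in the gene body or in the 10 kb on either side on build mm10. The genes were listed by name as members of the receptor family, by a rule that uses no methylation value, though with earlier results of these data known. Reduced representation bisulfite sequencing, which reads methylation at CpGs of restriction fragments, was applied to liver DNA of 2 Pnpla7-/- libraries (KO) and 2 Pnpla7+/+ libraries (WT), all from 6-week-old mice of the C57BL6/N strain. Pnpla7 encodes a lysophospholipase, and KO is set against WT to see which CpGs of these receptors differ in the knockout. No other allele or agent is given for either genotype, and which cells carry the deletion is not given in the labels. Whether the replicates of a genotype are different animals is not stated in the labels. Any spread that the p-values measure is therefore only that between these libraries, which may be technical. For tiles of 1 kb, windows at gene starts and single CpGs, the p-values rest also on read counts and on a spread estimated over the genome.

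Nuclear receptors are transcription factors that bind DNA through a zinc finger domain and, in many cases, are switched by small lipophilic ligands such as steroid and thyroid hormones, retinoids, fatty acids, oxysterols and bile acids. Several act as heterodimers with retinoid X receptors, and some orphan members, without a known ligand, act alone or as repressors. In liver they set the daily and feeding-dependent expression of genes of lipid, bile acid, glucose and drug metabolism. Methylation of cytosine in CpG is usually low in CpG-dense sequence at gene starts and high in CpG-poor sequence elsewhere.

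Over all cytosines 59953688 and 60535892 reads were counted in KO replicates 1 and 2, against 50413170 and 59437109 in WT replicates 1 and 2. At the 1600691 CpGs covered by 10 or more reads in each library the median depth was 25 reads in each KO library, against 21 and 25 reads in WT replicates 1 and 2. The nuclear receptor genes held 8296 of these CpGs, with 25 to 602 per gene. Depth varied little between the genotypes, except that WT replicate 1 was the shallowest library. The liver label could not be checked from start windows of marker genes, since an analysed window existed for 3 of 8 hepatocyte genes, 1 of 7 leukocyte genes and 1 of 4 endothelial genes.

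The sequences before 7 gene starts are shown first, because they show the range of starts described here, from CpG-dense, unmethylated sequence (Ppara start 1, Rara start 2) to CpG-poor sequence that was partly or mostly methylated (Nr5a2 start 2, Rara start 3). Each is the run of 250 bases directly before a start listed by RefSeq on GRCm38.p6, written 5′ to 3′ on the gene's strand. Capitals mark each CpG measured with at least 10 reads in every library. Starts are numbered along the gene from the most upstream. They lie at chr15:85735526-85735775 (Ppara start 1, plus strand), chr11:98937468-98937717 and chr11:98939461-98939710 (Rara starts 2 and 3, plus strand), chr10:4611739-4611988 and chr10:4709908-4710157 (Esr1 starts 1 and 2, plus strand), chr1:136953631-136953880 (Nr5a2 start 2, minus strand) and chr2:163506607-163506856 (Hnf4a start 1, plus strand).
Ppara start 1: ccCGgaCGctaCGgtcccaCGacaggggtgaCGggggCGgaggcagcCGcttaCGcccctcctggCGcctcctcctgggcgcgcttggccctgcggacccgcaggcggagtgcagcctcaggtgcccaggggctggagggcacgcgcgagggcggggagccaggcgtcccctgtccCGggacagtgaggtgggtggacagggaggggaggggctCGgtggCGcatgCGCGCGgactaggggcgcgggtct
Rara start 2: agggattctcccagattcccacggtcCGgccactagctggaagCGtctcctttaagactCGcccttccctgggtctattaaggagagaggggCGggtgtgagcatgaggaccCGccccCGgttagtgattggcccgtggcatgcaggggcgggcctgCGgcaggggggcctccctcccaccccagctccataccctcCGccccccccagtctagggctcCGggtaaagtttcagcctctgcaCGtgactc
Rara start 3: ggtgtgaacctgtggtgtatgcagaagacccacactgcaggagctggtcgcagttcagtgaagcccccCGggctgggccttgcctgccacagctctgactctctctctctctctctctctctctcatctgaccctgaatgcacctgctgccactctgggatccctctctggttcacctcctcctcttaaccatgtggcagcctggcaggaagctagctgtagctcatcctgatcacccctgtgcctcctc
Esr1 start 1: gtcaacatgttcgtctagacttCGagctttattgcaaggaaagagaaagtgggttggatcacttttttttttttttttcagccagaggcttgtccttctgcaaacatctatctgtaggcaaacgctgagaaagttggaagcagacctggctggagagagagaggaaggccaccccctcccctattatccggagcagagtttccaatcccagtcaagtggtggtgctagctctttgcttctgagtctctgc
Esr1 start 2: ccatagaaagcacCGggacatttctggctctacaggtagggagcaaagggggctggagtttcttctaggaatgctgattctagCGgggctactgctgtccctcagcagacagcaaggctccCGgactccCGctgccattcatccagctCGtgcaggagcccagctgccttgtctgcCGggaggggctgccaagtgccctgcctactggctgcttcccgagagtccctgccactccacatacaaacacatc
Nr5a2 start 2: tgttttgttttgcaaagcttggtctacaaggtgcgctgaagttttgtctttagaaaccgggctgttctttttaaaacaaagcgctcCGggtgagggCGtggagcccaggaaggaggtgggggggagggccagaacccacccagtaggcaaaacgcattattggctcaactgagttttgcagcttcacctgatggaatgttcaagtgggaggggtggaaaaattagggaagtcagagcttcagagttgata
Hnf4a start 1: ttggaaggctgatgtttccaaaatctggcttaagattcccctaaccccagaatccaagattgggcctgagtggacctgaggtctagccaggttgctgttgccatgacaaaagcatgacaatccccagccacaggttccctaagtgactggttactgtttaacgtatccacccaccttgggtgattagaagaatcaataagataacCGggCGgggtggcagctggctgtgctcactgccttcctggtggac

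The Ppara run holds 27 CpGs, of which 15 were measured, and their mean level was 0.556% and 0% in KO, against 0.351% and 0% in WT, with replicate 1 before replicate 2 here and below. The 0% rests on 325 reads in KO and 263 in WT, which allow up to 0.923% and 1.14%. The run before the second Rara start holds 13 CpGs, of which 10 were measured, at 0.308% and 0.541% in KO and 0.185% and 0.527% in WT. Before the third Rara start there are 2 CpGs. The measured 1 of them was at 71.8% and 57.7% in KO and at 70.6% and 72.0% in WT, so the gene carries both kinds of start within 2015 bp. The run before the second Nr5a2 start was intermediate, at 30% and 23.5% in KO against 40.9% and 28.9% in WT over 2 of its 6 CpGs. Before the first Hnf4a start, 2 of 3 CpGs were measured, at 8.39% and 23.3% in KO and 9.55% and 12.55% in WT. Of the 7 CpGs before the second Esr1 start 6 were measured, at 13.5% and 12.6% in KO and 9.59% and 12.9% in WT. The 1 measured CpG before the first Esr1 start was at 9.09% and 0% in KO and at 5.56% and 0% in WT, where 0 of 29 reads in KO and 0 of 14 in WT allow up to 10.3% and 21.4%. KO and WT overlapped in all 7 runs.

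Most starts of nuclear receptor genes were unmethylated in both genotypes, and no start differed between them beyond the test. RefSeq lists 62 starts for 41 of the genes. For Thra, Hnf4g, Nr5a1 and Nr3c1 the end of the gene with more listed CpGs was used in place of a start. A window of 1 kb on either side was analysed where it held 3 or more CpGs of that depth, which left 53 windows of 41 genes. None was analysed for Nr1h4, the bile acid receptor FXR, Nr1i2, the xenobiotic receptor PXR, Nr2f2, or Nr3c1, the glucocorticoid receptor. Of the 53 windows 37 were below 5% methylation, 12 lay between 5% and 20%, 3 between 20% and 80%, and 1 above 80%. At annotated starts alone 36 of 50 windows were below 5%, or 72%, against 62.2% of 18725 windows of other genes. The member windows held a median of 51 listed CpGs and the others 45.

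No window of the 53 was called, where a window was called if the moderated quasi-binomial model gave adjusted p under 0.05 and the genotypes were 10 or more percentage points apart. Over all genes 0.00864% of windows were called. At unadjusted p under 0.05 there were 3 windows, or 5.66%, against 5.82% of all windows, and limma on log2 ratios called 0 and gave 0 at unadjusted p under 0.05. Among windows below 5% methylation the largest difference between genotypes was 1.83 points. Averaged over the members with a window, the level was 8.09% ± 0.0259 in KO and 8.17% ± 0.233 in WT (SD, n = 2 each; exact permutation test, two-sided, p = 1.0), with KO inside the range of WT. With 2 libraries against 2 this test cannot go below 0.333. The difference, -0.0816 points, was 0.0829 without WT replicate 1 and -0.246 without WT replicate 2.

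**Figure D1:**
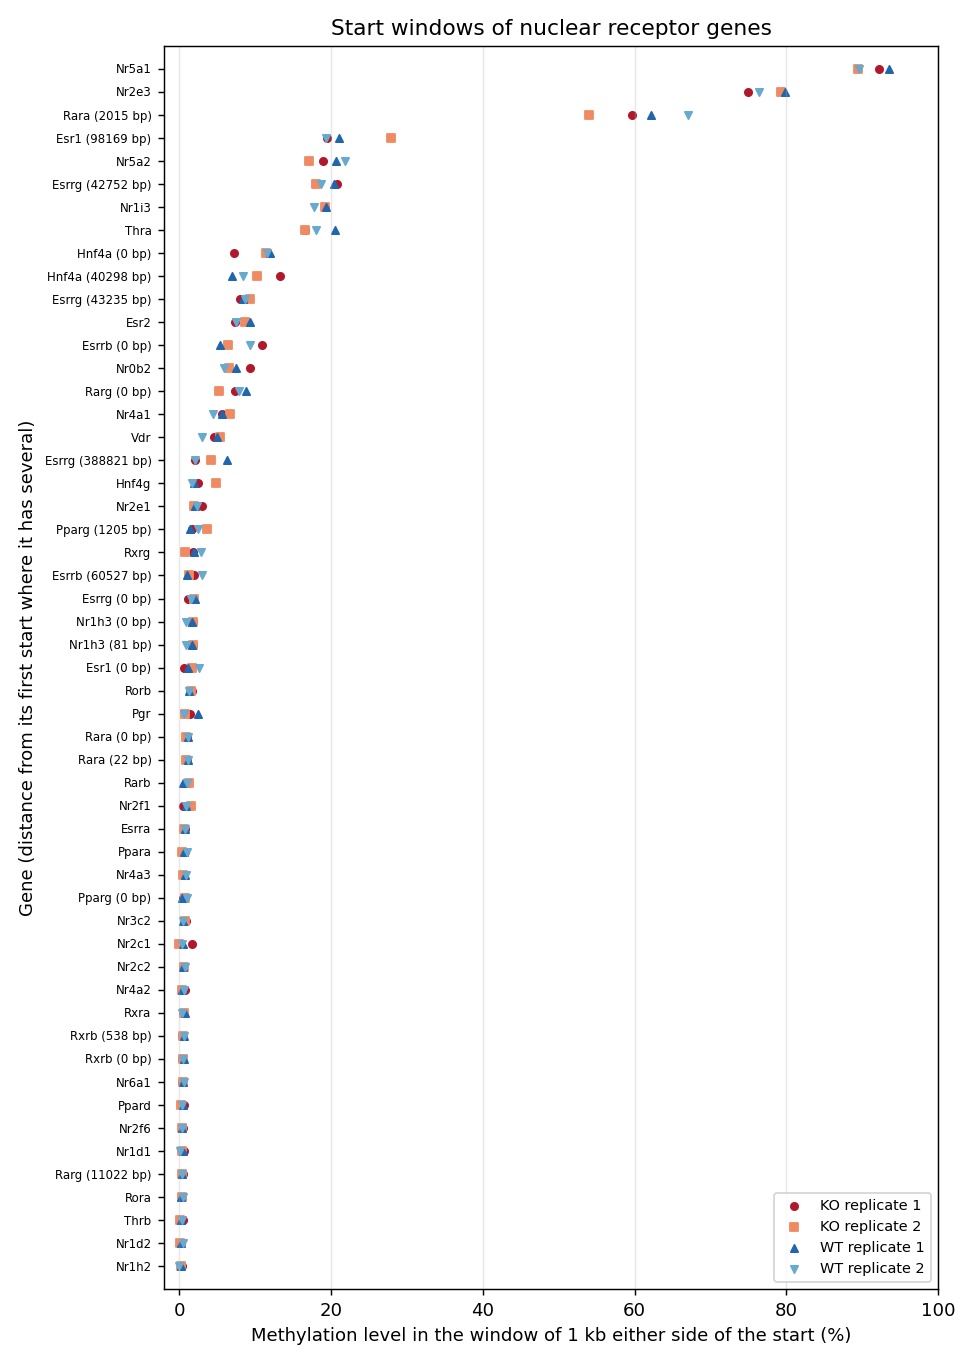
Methylation level (percent, x axis) within 1 kb of each analysed start of a nuclear receptor gene (rows, ordered by mean level), with 1 point per library and, for genes with several starts, the distance from the first. Of the 53 windows 37 lie below 5%, and the windows of Nr5a1, Nr2e3 and the third start of Rara stand above 50% in every library.

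The lowest windows were those of Nr1h2, the oxysterol receptor LXR beta, at 0.412% and 0.257% in KO and 0.157% and 0% in WT. The 0% rests on 956 reads, which allows a level of up to 0.314%. Nr1d2, a clock repressor, had 0.269% and 0.125% in KO and 0.188% and 0.446% in WT. Next came Thrb, the thyroid hormone receptor that predominates in liver, at 0.433% and 0.103% in KO and 0.265% and 0.329% in WT. Rora, an activator of clock genes, and the second start of Rarg, a retinoic acid receptor, averaged 0.352% and 0.378% over the 4 libraries. Neighbours in this order differ by less than the widest gap between libraries of 1 genotype within them.

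The highest window was that at the CpG-richer end of Nr5a1, the steroidogenic factor of adrenal and gonad. It was at 92.2% and 89.4% in KO against 93.6% and 89.6% in WT over 10 CpGs, and is not a listed start. The tile at chr2:38712001-38713000, inside the gene, was at 3.45% and 3.50% in KO and 3.96% and 5.33% in WT over 28 CpGs. The annotated start of Nr2e3, a photoreceptor factor, had 74.9% and 79.3% in KO and 79.9% and 76.4% in WT. In the Nr5a1 and Nr2e3 windows KO and WT overlapped. The third start of Rara, a retinoic acid receptor, had 59.6% and 53.9% in KO, against 62.2% and 67% in WT. Both KO libraries were below both WT libraries there, a difference of -7.84 points (adjusted p = 0.883). The windows of the first and second Rara starts hold the same CpGs, which averaged 0.943% in KO and 1.09% in WT.

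The second start of Esr1, the estrogen receptor alpha, lies 98169 bp after the first and measured 19.4% and 27.9% in KO, against 21.0% and 19.3% in WT. The KO libraries differed from each other by 8.55 points, more than in any other member window, and KO replicate 1 lay between the WT libraries. The first Esr1 start was at 0.571% and 1.70% in KO and at 1.14% and 2.60% in WT. At the third Rara start the gap was 5.65 points between the KO libraries and 4.77 between the WT libraries. The next windows by their wider gap were the first start of Esrrb with 4.56 and Nr2e3 with 4.37 (both between KO libraries), and the fourth start of Esrrg with 4.22 between WT libraries.

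Nr5a2, the bile acid and reproduction regulator LRH-1, had its second start at 19% and 17.1% in KO against 20.6% and 21.9% in WT. Both KO libraries lay below both WT libraries there, by 3.17 points (unadjusted p = 0.0326 and adjusted p = 0.822, quasi-binomial model). Hnf4a, a central regulator of hepatocyte genes, is known for an upstream promoter and a downstream promoter, the second of which serves adult liver. Its first listed start was at 7.22% and 11.4% in KO and 12% and 11.6% in WT. Its second start, 40298 bp downstream, was at 13.3% and 10.3% in KO, against 6.89% and 8.35% in WT. The KO libraries were both below the WT libraries at the first start and both above them at the second, with differences of -2.45 and 4.13 points. The second had the smallest p of any member window (unadjusted p = 0.0233 and adjusted p = 0.775, quasi-binomial model), and the windows rest on 3 and 13 CpGs. The third window at unadjusted p under 0.05 was the first start of Rarg, at 7.38% and 5.29% in KO and 8.78% and 7.84% in WT.

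Among the metabolic sensors, Ppara, the fatty acid receptor, had a start window at 0.691% and 0.411% in KO and 0.637% and 1.06% in WT. Rxra, the main retinoid X receptor of liver, averaged 0.510% in KO and 0.524% in WT. The 2 listed starts of Nr1h3, the oxysterol receptor LXR alpha, share a window at 1.84% and 1.80% in KO and 1.64% and 0.903% in WT. Nr1i3, the xenobiotic receptor CAR, was higher, at 19.1% and 19.2% in KO and 19.3% and 17.8% in WT. Nr0b2, the corepressor SHP, had 9.35% and 6.57% in KO and 7.5% and 5.90% in WT, and both windows rest on 3 CpGs. Nr1d1, the clock repressor REV-ERB alpha, was at 0.567% and 0.405% in KO and 0.440% and 0.148% in WT. KO and WT overlapped in all of these except Nr1h3, whose KO libraries were both above the WT libraries by 0.551 points on average (adjusted p = 0.940, quasi-binomial model).

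The low methylation around nuclear receptor starts reached further upstream than around the starts of other genes. Over the 41 genes with an annotated start, CpGs from 1000 to 500 bp before the first start averaged 2.22%, against 13.7% at other genes. From 5000 to 2000 bp before it the means were 21.8% and 44.3%, and from 5000 to 10000 bp after it 32.7% and 50.2%. In the 500 bp after the start they were 0.805% and 3.56%. These means weight each CpG equally, so genes with many CpGs count most, and they are a description with no test. KO and WT libraries ran close together at every distance. From 5000 to 2000 bp before the start both KO means of the members lay below both WT means, at 21.3% and 21.5% against 22.3% and 22.1%. The same held from 1000 to 500 bp before it. From 5000 to 10000 bp after the start both KO means lay above, at 33.5% and 32.6% against 32.5% and 32.3% in WT. At the other distances KO and WT overlapped in the members.

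**Figure D2:**
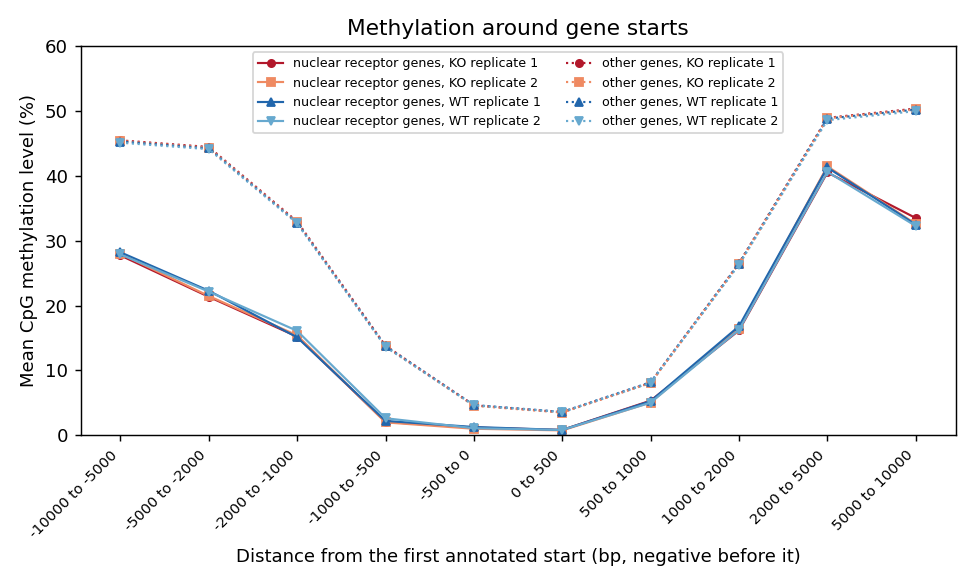
Mean CpG methylation (percent, y axis) by distance from the first annotated start (bp, x axis, negative before the start) in the 41 nuclear receptor genes with one (solid) and in other genes (dotted), with 1 line per library. The members lie below the other genes at every distance, at 2.22% against 13.7% from 1000 to 500 bp before the start. The KO and WT lines of a set run close together.

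The letters of the member promoters (250 bases before to 50 after a start, 62 promoters of 32851) were searched on both strands. The E-box CACGTG was in 6 of them, or 9.68%, against 7.15% of all promoters, and AGGTCA, the core motif bound by many nuclear receptors, in 11, or 17.7%, against 16.3%. A direct repeat of AGGTCA with 1 base between the copies (DR1) or 4 bases (DR4) was in 0 member promoters, and in 0.0396% and 0.0152% of all promoters. The promoters of the first and second Rara starts hold the same E-box, so the 6 count that site for both. This E-box, at chromosome 11 position 98937710, contains a measured CpG. It was at 3.08% and 0% in KO and at 1.85% and 0% in WT, with 54 to 73 reads per library, and 0 of 73 reads allows up to 4.11% in both genotypes.

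Within the gene bodies and flanks, methylation passed the test for a difference between genotypes in a 1-kb tile of Esr1, with 3 of its CpGs, and at 1 CpG of Ppara whose tile did not pass. Of 725 tiles with at least 3 CpGs, 724 could be tested, and 1 was called, or 0.138%, against 0.0795% of all tiles in the genome. It was higher in KO, and tiles both called and higher in KO made up 0.0617% of all tiles. At unadjusted p under 0.05 there were 63, or 8.70%, against 5.78% of all tiles. Of these 33 were higher in KO, or 4.56%, against 3.45% of all tiles, and 30 were lower, or 4.14%, against 2.33%. Both KO libraries were above both WT libraries in 152 tiles, 21.0% against 19.5% of all tiles, and below them in 123, 17.0% against 14.9%. The median difference was 0.18 points in member tiles and 0.175 in all tiles. Member tiles held a median of 145 reads per library and all tiles 111, and 11 member tiles were shared by 2 member genes.

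**Figure D3:**
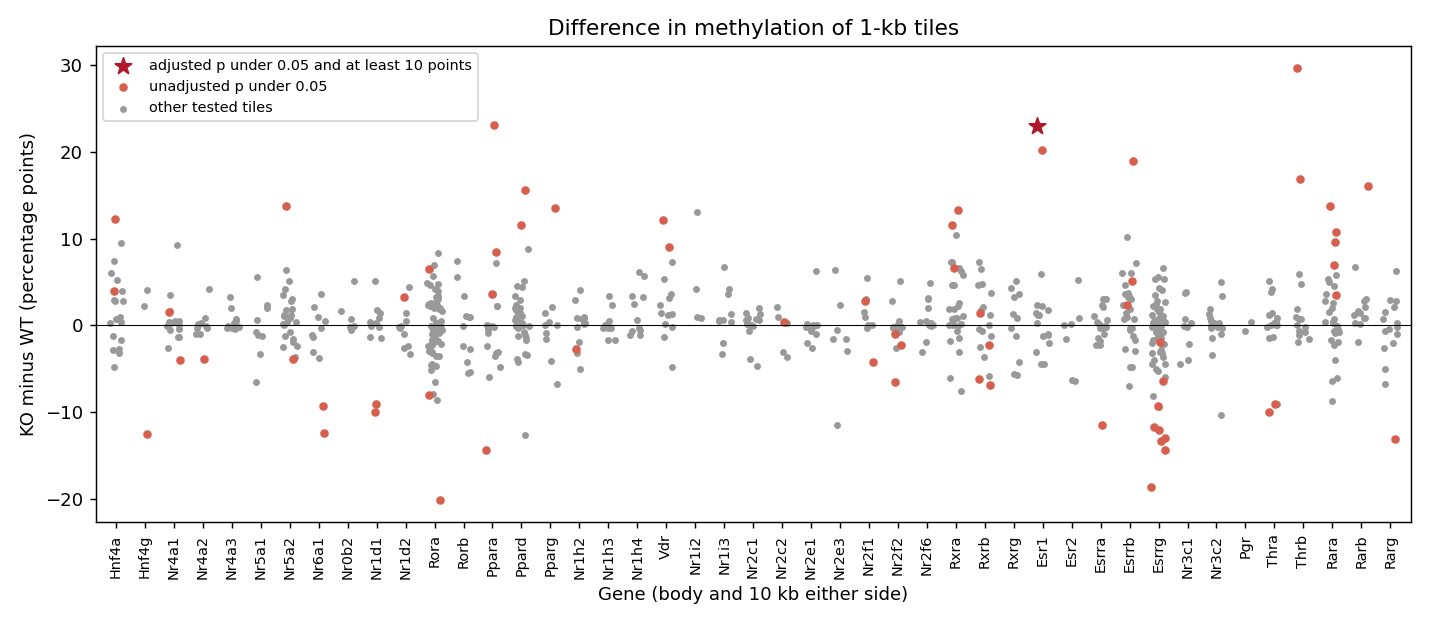
Difference in methylation between KO and WT, weighted by reads (percentage points, y axis), of each tested 1-kb tile, by nuclear receptor gene (x axis, ordered by class), with 1 point per tile and gene. The star marks the Esr1 tile at 23.0 points with adjusted p under 0.05; coloured points have unadjusted p under 0.05, and most points lie near 0.

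The Esr1 tile lies at chr10:4621001-4622000, inside the gene body and 9226 to 9629 bp after its first start by its CpGs. The annotation used gives no exons, so exon and intron are not stated. Its level was 62.2% and 48.6% in KO, against 33.1% and 31.6% in WT, over 10 CpGs and 450 to 555 reads per library. The lowest KO library was above the highest WT library by more than the gap between KO libraries. The means were 55.4% ± 9.60 in KO and 32.4% ± 1.04 in WT (SD, n = 2 each), a difference of 23.1 points (adjusted p = 0.00211, quasi-binomial model). The tile was not called by limma on log2 ratios, where adjusted p was 0.894 and no tile in the genome was called.

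Within the tile, both KO libraries were above both WT libraries at the first 8 of the 10 CpGs, and the 3 called CpGs lie among the first 5. At position 4621215 the level was 41.3% and 24.2% in KO, against 2.04% and 0% in WT (adjusted p = 0.0156). The 0% is of 51 reads, which allows up to 5.88%. At position 4621250 it was 52.8% and 32.7% in KO, against 4.88% and 2.44% in WT (adjusted p = 0.0293). At position 4621241, which had the same depths as 4621250 in every library and so may share its reads, it was 50.0% and 28.6% in KO and 4.88% and 2.44% in WT (adjusted p = 0.0687). All 3 were below 5% in both WT libraries, at 41.3% to 52.8% in KO replicate 1 and at 24.2% to 32.7% in KO replicate 2.

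At position 4621409 the KO libraries were close to each other, at 62.6% and 60.6%, against 25% and 23.1% in WT (adjusted p = 0.00356), with 66 to 91 reads per library. At 4621380 the levels were 70.8% and 57.3% in KO, against 40.8% and 34% in WT (adjusted p = 0.182). The next 3 CpGs were more methylated in all libraries, with smaller differences that were not called (adjusted p = 0.782 for each). At 4621453 the levels were 83.3% and 79.0% in KO, against 72.4% and 61.5% in WT. At 4621459 they were 81.0% and 89.5% in KO, against 69.0% and 61.5% in WT, and at 4621465 they were 85.5% and 91.3% in KO, against 72.7% and 81.3% in WT. KO was higher at each of these 3 by 11.4 points or more. The last 2, at 4621586 and 4621618, had 35.1% and 13.5%, and 24.3% and 13.2%, in KO, against 17.9% and 21.4%, and 14.3% and 19%, in WT, so KO and WT overlapped there.

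A further Esr1 tile, at chr10:4969001-4970000, had 93.8% and 83.6% in KO and 69.9% and 64.5% in WT over 5 CpGs. Both KO libraries were above both WT libraries, by 21.5 points, and adjusted p was 0.175. Of the 18 Esr1 tiles 11 were higher and 7 lower in KO. The mean level over all 157 CpGs of the Esr1 region was 67.7% and 68.0% in KO, against 68.6% and 64.7% in WT, and did not separate the genotypes.

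In Ppara, 1 CpG was called and its tile was not. The tile, at chr15:85743001-85744000 and 7548 to 7708 bp after the Ppara start by its CpGs, had 53.9% and 49.7% in KO, against 29.3% and 28.3% in WT, over 5 CpGs and 82 to 145 reads. The groups did not overlap, the difference was 23.0 points and adjusted p was 0.0802. The called CpG, at 85743469, had 63.6% and 36.8% in KO, on 22 and 19 reads, against 0% in both WT libraries, on 13 and 26 reads (adjusted p = 0.0421). A count of 0 at those WT depths allows up to 23.1% and 11.5%. With CpGs of 5 or more reads tested, its adjusted p was 0.0526 and it was not called. The CpG 3 bp before it, read at the same depths, was methylated in every library, at 81.8% and 84.2% in KO and 84.6% and 73.1% in WT.

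The next CpG of the tile, at 85743484, had 77.3% and 73.7% in KO against 30.8% and 50.0% in WT, and that at 85743383 had 42.9% and 52.6% in KO against 19% and 21.2% in WT. At 85743324 the levels were 31.9% and 29.2% in KO and 22.7% and 5.88% in WT. Both KO libraries were thus above both WT libraries at 4 of the 5 CpGs. Whether the CpG at 0% carries a base other than the reference in WT was not tested. No CpG in the member regions was at or below 10% in both libraries of 1 genotype and at or above 70% in both of the other.

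**Figure D4:**
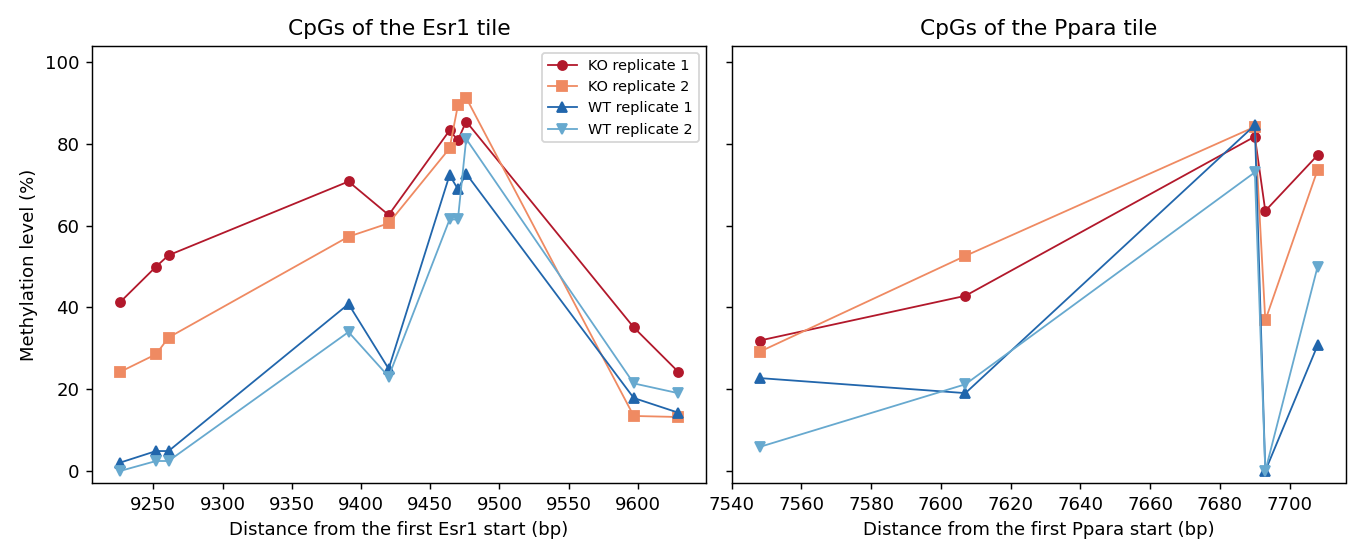
Methylation level (percent, y axis) of each analysed CpG in the Esr1 tile (left) and the Ppara tile (right), by distance from the first start of the gene (bp, x axis), with 1 line per library. KO lies above WT at the first 8 of the 10 Esr1 CpGs and overlaps it at the last 2, and in Ppara the CpG at 7693 bp is at 0% in both WT libraries against 63.6% and 36.8% in KO.

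In all, 4 of 6137 tested member CpGs were called, or 0.0652%, against 0.00807% of CpGs in the genome, 3 of them in the Esr1 tile and 1 in the Ppara tile. CpGs of 1 tile share reads and neighbours, so these are not 4 separate places. At unadjusted p under 0.05 there were 266 member CpGs, 143 higher and 123 lower in KO, or 4.33%, against 4.01% in the genome. The dispersion used at the called CpGs was 1.11 to 1.25, near the 1.18 estimated over informative CpGs, so their p-values reflect read counts more than the spread between libraries at each CpG. Limma on log2 ratios called 6 member CpGs, among them those at 4621215, 4621250 and 85743469 but not that at 4621409 (adjusted p = 0.698). None of the 4 was called when the spread was estimated from all CpGs, a setting that called 9 CpGs in the genome. With 1 library left out, their differences weighted by reads ran from 23.2 to 63.6 points.

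Beside the Esr1 and Ppara tiles, the 5 tiles with the smallest p that were higher in KO included 1 in Nr5a2 and 1 in Thrb, and neither passed the test. In Nr5a2 the tile at chr1:136912001-136913000, in the gene body, had 44.4% and 50.2% in KO and 33.9% and 33.2% in WT over 8 CpGs and 345 to 461 reads. Its KO libraries were both higher, by 13.8 points, with adjusted p of 0.0587. With a spread estimated from all tiles, adjusted p was 0.0454 and this tile was called. In Thrb the tile at chr14:17885001-17886000, in the gene body, had 70.1% and 68.4% in KO and 47.3% and 34.8% in WT over 4 CpGs. The difference there was 28.2 points, the largest of these 5, on 55 to 89 reads, and adjusted p was 0.104.

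The 5 tiles with the smallest p that were lower in KO lie in or near 4 members. Upstream of Esrrg, an estrogen-related receptor of oxidative metabolism, the tile at chr1:187605001-187606000 had 9.82% and 11.6% in KO and 14.6% and 19.5% in WT over 30 CpGs (difference -6.35 points, adjusted p = 0.0786). The tile before it, from 187604001, had 6.36% and 7.95% in KO and 15.8% and 22.6% in WT over 3 CpGs (adjusted p = 0.452). Both lie before the first Esrrg start. The 250 bases directly before that start, with 8 measured CpGs, averaged 0.943% and 1.75% in KO and 0.25% and 1.30% in WT.

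Thra, a thyroid hormone receptor, and Nr1d1 overlap each other on chromosome 11, and so share both of their tiles. The tile at chr11:98772001-98773000 had 45.4% and 42.5% in KO and 52.3% and 55.4% in WT. The tile at chr11:98768001-98769000 had 69.0% and 66.7% in KO and 74.8% and 78.9% in WT. KO libraries were below WT libraries in both, with differences of -9.88 and -9.01 points, and adjusted p was 0.380 for each. Near Esrra, an estrogen-related receptor of mitochondrial genes, the tile at chr19:6928001-6929000 had 40.6% and 36.5% in KO and 47.0% and 52.3% in WT (difference -11.1 points, adjusted p = 0.387).

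**Figure D5:**
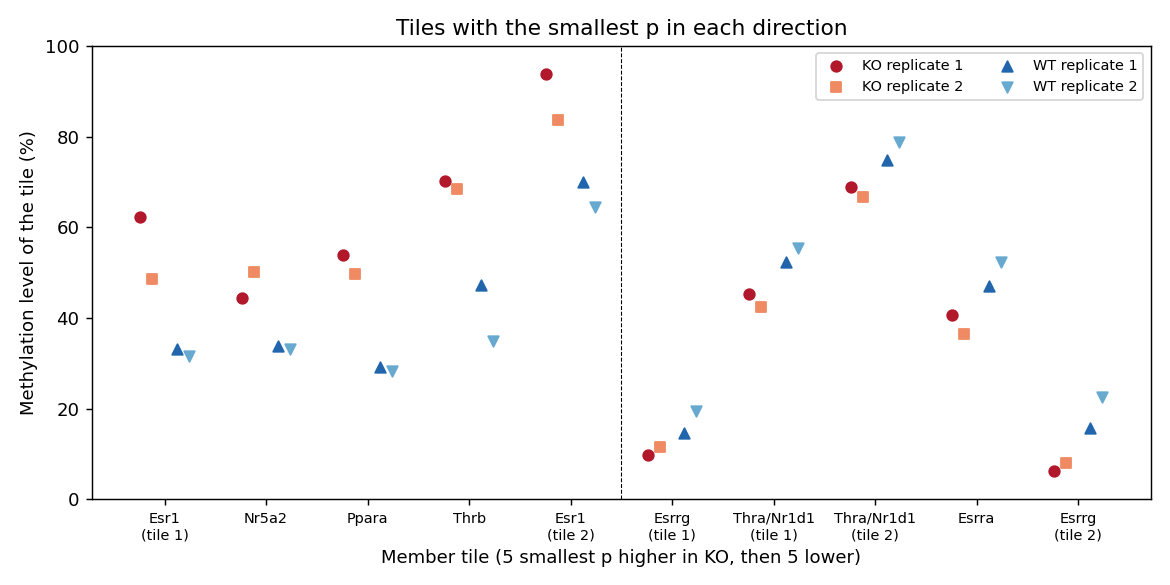
Methylation level (percent, y axis) in each library of the 5 member tiles with the smallest p that were higher in KO (left of the dashed line) and the 5 that were lower (right). KO and WT do not overlap in any of the 10, which the choice by p favours, and only the first Esr1 tile passed adjusted p under 0.05.

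Several members had more than 1 tile at unadjusted p under 0.05, a pattern chosen here after the values were seen. Esrrg had 9 of its 62 tiles there, all lower in KO, and Rara had 5 of its 32 there, all higher in KO. Of all tiles in the genome 2.33% were lower and 3.45% higher in KO at that p. Other members were mixed, such as Ppara with 3 higher and 1 lower, and Rxrb with 1 higher and 3 lower. The Esrrg tiles include those named above and others in the gene body, such as that from 187803001, at 66.7% and 73.6% in KO and 88.1% and 91.7% in WT. In Rara the tile with the smallest p, from 98973001, had 68.4% and 60.1% in KO and 55.4% and 52.7% in WT (adjusted p = 0.277). Rxra had 3 such tiles of 30, all higher in KO. Its tile with the smallest p, from 27748001, had 73.9% and 60.6% in KO and 62.5% and 48.0% in WT, so KO replicate 2 lay below WT replicate 1.

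Among single CpGs with 20 or more reads in every library, the 5 with the largest difference each way were examined. KO and WT did not overlap at any of them except that in Vdr, which the choice by difference favours. In Vdr, the vitamin D receptor, the CpG at 97857515 had 34.4% and 95.7% in KO and 0% and 43.8% in WT, the largest difference at 43.1 points. Its replicates of each genotype were farther apart than the genotypes, and the WT 0% is of 22 reads, which allows up to 13.6%. In Rara the CpG at 98966456 had 58.8% and 56.0% in KO and 30.4% and 15.6% in WT. The other 3 of the 5 largest are the Esr1 CpGs at 4621250, 4621409 and 4621241.

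Of the CpGs that were lower in KO, that at 187605467 near Esrrg had 12.9% and 27.9% in KO and 36.4% and 58.3% in WT. That at 98768819, shared by Thra and Nr1d1, had 35.3% and 31.2% in KO and 62.5% and 53.8% in WT. The other 3 are 2 in Ppard, the PPAR delta gene, at 28277079 (52.2% and 52.8% in KO, 79.2% and 75.0% in WT) and at 28300476 (59.3% and 71.0% in KO, 87.0% and 89.7% in WT), and 1 near Rara at 98926027 (6.90% and 16.7% in KO, 37.9% and 32.3% in WT). KO was below WT at all 5, none was called, and adjusted p was 0.782 for each.

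Over whole gene regions, each CpG weighted equally, levels differed far more between the receptors than between the genotypes. The mean over the 4 libraries ran from 3.80% in Pgr, the progesterone receptor, to 78.3% in Nr2e3, with a median of 35.7%, against 42.1% for all genes. Regions below 10% were 7, namely Pgr, Nr2f2, Nr4a2, Nr2f1, Nr4a3, Nr2e1 and Nr3c1. They include developmental orphan receptors and the immediate-early receptors of the NR4A group, and 58.9% or more of their CpGs had at least 20 listed CpGs within 250 bp. Regions above 60% were 9, among them Nr1h4 at 73.7%, Rxrg at 68.8%, Nr1h2 at 67.3%, Esr1 at 67.3%, Nr1i2 at 63.8% and Hnf4a at 62.6%. In Nr1h2 43.1% of the CpGs were in such dense sequence, and in the others named here 14% or fewer.

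None of the 45 regions was called by limma (adjusted p under 0.05), against 0.0% of all 26474 regions. At unadjusted p under 0.05 there were 3, or 6.67%, against 8.08% of all regions, and the lowest adjusted p was 0.550. With reads summed over each region limma called 0 and had 1 at unadjusted p under 0.05. The mean was higher in KO in 27 regions and lower in 18, a share of 60% higher, against 59.0% of all regions. Both KO libraries were above both WT libraries in 15 regions, 33.3% against 24.9%, and below them in 3, 6.67% against 13.8%. The median difference was 0.153 points in the members and 0.176 in all regions.

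The smallest p belonged to Nr1i2, at 66.1% and 65.0% in KO and 62.5% and 61.4% in WT over 29 CpGs, a difference of 3.60 points with a standard error of 1.01 (limma, unadjusted p = 0.0159). Hnf4a followed, at 64.0% in both KO libraries and 61.2% and 61.3% in WT over 116 CpGs, a difference of 2.75 points with a standard error of 0.868 (limma, unadjusted p = 0.0243). Nr2f1, the orphan receptor COUP-TFI, had 6.69% and 7.09% in KO and 6.02% and 6.24% in WT. KO was above WT without overlap in all 3, which the choice by p favours. In the Hnf4a region 14 of 20 tiles were higher in KO, and in the Nr1i2 region 4 of 4, against 396 of 725 member tiles. These tiles hold CpGs of the same regions, so their counts add no separate support.

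By role, the 9 lipid, bile acid, vitamin D and xenobiotic sensors had 8 regions higher and 1 lower in KO. The 2 HNF4 receptors had 2 higher, and of all regions 59.0% were higher. Among the 8 sensor regions, those of Nr1h2 and Nr1i3 were higher by only 0.0761 and 0.145 points. Vdr had 60.7% and 64.7% in KO and 60.1% and 59.5% in WT, a difference of 2.96 points. The Ppara region had 22.5% and 23.2% in KO and 22.9% and 21.4% in WT, and Nr1h4 75.4% and 73.5% in KO and 73.9% and 72.1% in WT, with overlap in both. Nr1h3 was the sensor that was lower, at 23.8% and 23.3% in KO against 23.8% in both WT libraries. None of these differences passed the test.

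The steroid and estrogen-related receptors had 5 regions higher and 3 lower, the thyroid hormone and retinoid receptors 3 and 2, the retinoid X receptors 2 and 1, and the clock receptors 2 and 2. Among other NR2 receptors 2 were higher and 5 lower, and among the NR4, NR5, NR6 and NR0 receptors 3 and 4. Both KO libraries were below both WT libraries in 3 regions, those of Esrrg (50.2% and 51.6% in KO, 52.4% and 52.5% in WT), Nr1d1 (35.2% in both KO libraries, 35.8% and 36.0% in WT) and Nr2f2 (4.88% and 4.89% in KO, 5.09% and 5.08% in WT). Nr3c1 had no listed start, and no CpG within 1 kb of the gene end used in its place was analysed. Its region level was 9.59% and 9.63% in KO and 9.52% and 9.36% in WT. Its tile at chr18:39489001-39490000, in the gene body, was at 0.244% and 0.117% in KO over 98 CpGs, against 0.329% and 0.307% in WT. Rora, the member with the most CpGs, had 51.9% and 51.8% in KO and 52.1% and 51.6% in WT.

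Averaged over the 45 genes, the region level was 37.8% ± 0.0476 in KO and 37.3% ± 0.350 in WT (SD, n = 2 each), a difference of 0.518 points. Both KO libraries, at 37.8% each, were above the WT libraries, at 37.5% and 37.0% (exact permutation test, two-sided, p = 0.333, the smallest this design allows). With reads summed in place of equal weight per CpG the difference was -0.0651 points, so its direction depends on the weighting. Without WT replicate 2 it was 0.270 points.

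Split by CpG density, member CpGs with at least 20 other listed CpGs within 250 bp were slightly lower in KO and those in sparser sequence higher. The 3634 dense member CpGs averaged 3.59% ± 0.0442 in KO and 3.73% ± 0.0488 in WT, a difference of -0.138 points, against -0.148 points at dense CpGs elsewhere. The 1912 CpGs with 0 to 4 neighbours averaged 73.4% ± 0.167 in KO and 72.5% ± 0.687 in WT, a difference of 0.875 points, against 0.926 elsewhere. It was 0.390 points without WT replicate 2 and 1.36 without WT replicate 1. At 5 to 19 neighbours the difference was 0.492 points in the 2750 member CpGs and 0.312 elsewhere, and 0.283 in the members without WT replicate 2. The KO and WT libraries did not overlap in any of the 3 classes (exact permutation test, two-sided, p = 0.333 for each, the smallest possible). Dense CpGs made up 43.8% of the member CpGs and 35.8% of the others, and sparse ones 23% and 30.8%.

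Among genes that act with the receptors, given as counts, tiles were called in 3. Of 16 coregulator genes, 1 tile of 290 was called, in Ppargc1b, a coactivator of PPAR and estrogen-related receptors, at 81.6% and 77.2% in KO and 66.1% and 61.8% in WT (adjusted p = 0.0445, quasi-binomial model). Of 12 genes of ligand supply, 1 tile of 103 was called, in Cyp7a1, which starts the classic route of bile acid synthesis, and of 24 target genes in liver 1 tile of 222, near Srebf1, a regulator of lipid synthesis. These were higher in KO and made up 0.345%, 0.971% and 0.452% of the tiles of their lists, against 0.0795% of all tiles. Each share is 1 tile of a short list, and the lists were chosen with earlier results of these data known. No excess over all tiles is therefore read from them. None of their 16, 9 and 19 start windows was called by the quasi-binomial model, and 2, 1 and 0 of them had unadjusted p under 0.05.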

How the data were processed

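For every library the authors deposited 2 tracks, one of methylation levels and one of read depths, both made with GBSA on build mm10, per the file headers. Deposited levels are fractions and deposited depths are counts of reads, both written as negative values for cytosines of the reverse strand. BWA 0.7.12 and MACS also appear in the submitters' processing notes, with no role stated. Multiplying level by depth gave whole numbers everywhere (100%, tolerance 1e-06), taken as methylated reads. The 2 strands of a CpG were added, and a CpG entered with 10 or more reads per library. With 5 of 10 reads methylated the 95% Clopper-Pearson (exact) interval is 18.7% to 81.3%, and 0 of 10 (floor of 3 counts) allows up to 30%, for counting error alone, since reads were amplified without molecular identifiers. Genes, starts and promoter sequences came from RefSeq tables on GRCm38.p6, the assembly of mm10, which give no exons.

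Tiles of 1 kb, start windows and CpGs were fitted over the whole genome with a moderated quasi-binomial model. Pearson dispersions were shrunk by limma 3.58.1 (R 4.3.3) and floored at 1, the F test of the quasi-likelihood was two-sided, and p-values were adjusted by Benjamini-Hochberg over all tested features. The prior came from features whose binomial variance reached 5 reads per library, a choice made with earlier results of these data known. Gene regions (10 or more CpGs) were tested with limma on mean CpG levels with a trend, and single values with exact permutation tests. Differences are between means of the 2 libraries per genotype; for alternatives of tiles and CpGs they weight by reads. The scripts, tested on simulated data, used numpy 2.4.6, pandas 2.3.3, scipy 1.17.1 and matplotlib 3.10.9.

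The member genes, partner lists and rules were chosen with earlier results of these data known. Named are members with a called feature, the 5 tiles with the smallest p and the 5 CpGs of 20 or more reads with the largest difference each way, extreme, intermediate or variable start windows, and 15 receptors of liver metabolism. Alternatives varied the read minimum, prior, test, tile and window size, flanks and weighting, added a replicate block, or dropped a library. A further alternative, limma with each CpG of a tile equal, was chosen after seeing the data.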

Additional observations from a re-analysis of the deposited data

How the results depend on the processing

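No start window or gene region of a member was called under any alternative run. Of 164 values of named tiles and CpGs under alternatives, 125 kept their side of the threshold, 14 passed it newly, 24 lost it and 1 changed sign. The count of called member tiles, 1 as reported, was 2 at 5 or more reads and 2 with the prior of all features (Esr1 and Nr5a2 each time), 0 with limma on log2 ratios and 0 with limma with each CpG equal. With 1 library left out it was 2 to 4. Such a fit has 1 library in an arm, takes the spread from the other genotype and the prior, and assumes that the lone library varies alike, so its calls say nothing about stability. The Esr1 tile at 4621001 had a difference of 16.4 to 29.9 points in them. The count was 3 without KO replicate 1, 4 without KO replicate 2, 3 without WT replicate 1 and 2 without WT replicate 2. The second of those 2, an Esr1 tile at 4712001, had a difference of -14.0 points then, 4.17 without WT replicate 1 and -4.43 with all libraries. The count of called member CpGs, 4 as reported, was 0 with the prior of all features, 6 with limma and 0 in each fit without 1 library, when 0 CpGs in the genome were called and the spread was estimated anew.

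With the replicate number as a block, 5 member tiles (in Esr1, Nr5a2, Ppara and Thrb) and 8 member CpGs were called, and 340 tiles in the genome against 130 as reported. Same-numbered libraries did not deviate together (correlation -0.00844 over all tiles and -0.0800 over member tiles), so the numbers were not taken as pairs. The mean difference of member regions, 0.518 points, was -0.0651 with reads summed, and that of CpGs with 5 to 19 neighbours, 0.492, was 0.155 at 20 or more reads. The cause of these changes was not tested. The Ppara CpG was not called at 5 or more reads, when 3 member CpGs, all in Esr1, were. With 1 library left out the mean difference of start windows, -0.0816 points, ran from -0.246 to 0.0829, that of regions from 0.270 to 0.765, that of CpGs with 5 to 19 neighbours from 0.283 to 0.702 and that of CpGs with 0 to 4 from 0.390 to 1.36, each end without a WT library. At the Ppara CpG the depth allows a WT level of up to 23.1% in replicate 1.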

Other observations

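Start windows of cell type markers were few. The 3 hepatocyte markers with an analysed window had median levels of 25.4% and 14.4% in KO, against 13.6% and 15.0% in WT. The 2 cholangiocyte markers had 26.2% and 14% in KO and 27.4% and 23.2% in WT, and the 2 stellate and fibroblast markers 8.93% and 7.40% in KO and 8.26% and 9.18% in WT. The leukocyte marker was at 87.9% and 84.2% in KO and 86.5% and 70% in WT, and the endothelial marker at 2.40% and 1.51% in KO and 2.63% and 3.39% in WT. Both KO libraries lay below both WT libraries at the endothelial marker, and KO and WT overlapped in the other 4 sets. The share of cell types in the libraries was not tested.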
